A study of Arabidopsis thaliana with 24 samples.

Results

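Heat shock proteins and the transcription factors that control them were followed in rosettes of 2 Arabidopsis thaliana lines at 4 times of day. The 90 genes were the rows of the deposited gene table, which has 24503 genes, whose description names heat shock or a heat stress transcription factor, or whose name starts with HSP and a number or with HSFA, HSFB or HSFC. They comprised 24 J-domain proteins, 22 small HSPs, 19 heat stress factors (HSFs), 13 HSP70s, 7 HSP90s, 2 HSP60s and 3 others. No member of the ClpB/HSP100 disaggregases met this rule. Of the 90 genes, 76 had enough reads to be tested and 14 did not. HSP18.2 (AT5G59720) is carried in the deposited table under the name HSP18.1, and BIP (AT5G42020) is BIP2 in RefSeq.

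The mutant jaz4-1 carries a T-DNA insertion (SALK_141628C) in JAZ4, a repressor of jasmonate signalling, and was set against its wild type, Col-0. Both lines grew on soil at 22 °C under a 12 h photoperiod, and no heat treatment is given in the labels. Rosettes of 3-week-old plants were cut at ZT0, ZT6, ZT12 and ZT18, where ZT is hours after lights-on, so that ZT0 is dawn, ZT6 midday, ZT12 dusk and ZT18 midnight. Each line and time had 3 RNA-seq libraries, and each library came from 6 pooled rosettes. The mutant is a single insertion line, so a change that comes with this line and not with JAZ4 cannot be told apart from one of JAZ4. In whole rosettes, fewer cells that express a gene and less RNA per cell cannot be told apart either.

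Heat shock proteins are chaperones. HSP70s bind exposed hydrophobic stretches of unfolded proteins with the help of J-domain partners, HSP90s complete the folding of receptors and kinases, HSP60s enclose proteins in a folding chamber, and small HSPs hold unfolding proteins until HSP70 can act. Many family members are made without heat and serve protein import and folding in chloroplasts, mitochondria and the endoplasmic reticulum (ER). During heat, HSFs of class A1 are released from HSP70 and HSP90, bind heat shock elements in promoters and switch on small HSPs, HSFA2 and other targets.

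The 24 libraries held 16832226 to 22644745 reads and 18959 to 21863 detected genes. The fewest genes were detected in jaz4-1 ZT6 replicate 2 and Col-0 ZT0 replicate 2. JAZ4 itself (AT1G48500) was close to the detection floor. Over all times it had between 0 and 7.13 normalised reads per jaz4-1 library and between 0 and 21.8 per Col-0 library. Within a time, the lines overlapped for JAZ4 at ZT0 and ZT6 and were apart at ZT12 and ZT18. At ZT12 every Col-0 library had at least 4.55 normalised reads, and no jaz4-1 library had more than 3.13. At ZT18 the lowest Col-0 library had 3.85, against 3.06 for the highest jaz4-1 library. The JAZ4 mean was lower for jaz4-1 at each time, least so at ZT6 (4.02 against 4.45). The 4 rosette marker genes summed to 26790 to 48330 CPM (reads scaled to library size) in jaz4-1 and 30390 to 52590 CPM in Col-0. The 4 of 6 root markers in the table summed to 49.99 to 448 CPM in jaz4-1 and 50.4 to 318 CPM in Col-0, nearly all from PYK10, and the 6 floral markers summed to 0.577 to 1.55 CPM in jaz4-1 and 0.119 to 2.14 CPM in Col-0. Below, "normalised reads" are the deposited values, which were scaled within each time and serve to compare the lines, and "scaled reads" are the reads recovered from them and scaled over all 24 libraries, which serve to compare times. Gene lengths did not enter either scale.

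A pair of libraries stood apart in the small HSPs with the fewest reads and in HSFB1. Summed over the 7 small HSPs that had too few reads to be tested, jaz4-1 ZT12 replicate 3 held 92 reads and Col-0 ZT6 replicate 3 held 37 reads, each from 6 of the 7 genes, whereas the other 22 libraries held 0 to 9. The same libraries were high for HSFB1, a class B factor without the activation domain of class A, with 471 scaled reads in jaz4-1 ZT12 replicate 3 (104 and 83.3 in the other replicates) and 238 in Col-0 ZT6 replicate 3 (119 and 95.0 in the other replicates). Not every heat-inducible member set these libraries apart. In replicates 1 to 3 of jaz4-1 ZT12, HSFA2 had 107, 72 and 111 reads and HSP23.5 had 73, 61 and 75. HSP17.6B, by contrast, had 16, 23 and 77 reads there. A further pattern concerned dawn. Over 21 chaperone members, replicate 3 was the lowest at ZT0 in both lines, with 23930 scaled reads against 32450 and 40735 in the other jaz4-1 libraries, and 29450 against 32438 and 41484 in the other Col-0 libraries. The part of RNA quality or handling in these differences was not tested.

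**Figure D1:**
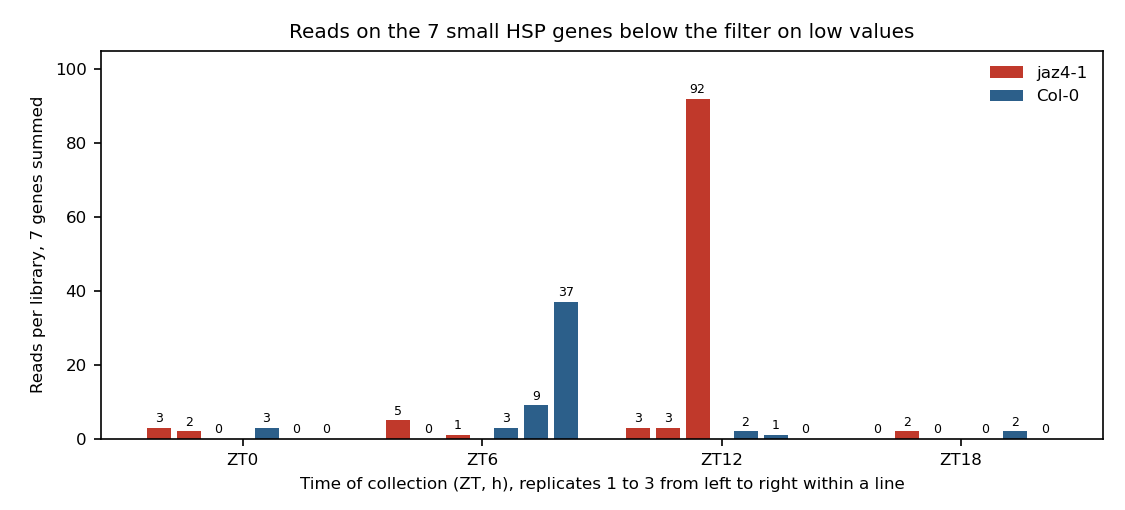
Reads in each of the 24 libraries, summed over the 7 small HSP genes with too few reads to be tested, by time (ZT in h) with jaz4-1 left of Col-0. One jaz4-1 library at ZT12 (92 reads) and one Col-0 library at ZT6 (37 reads) stand above the rest, which lie between 0 and 9 reads.

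Time of day moved the heat shock genes far more than the line did. Across the 4 times, 52 of the 76 tested members changed in jaz4-1 and 48 in Col-0 (limma F test, Benjamini-Hochberg adjusted p under 0.05). That is 68.4% of the members in jaz4-1 and 63.2% in Col-0, against a background of 53.5% of all 19614 tested genes in jaz4-1 and 49.1% in Col-0. The share of changing members was thus only moderately above that of all genes. The members called in both lines numbered 45, which is 86.5% of the jaz4-1 list and 93.8% of the Col-0 list. Over all genes the shared list made up 77.7% of the jaz4-1 list and 84.6% of the Col-0 list.

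The members stood out in when they were highest. Of the changing members, 29 of 52 (55.8%) had their highest mean at ZT12 in jaz4-1 and 28 of 48 (58.3%) in Col-0, where 26.3% and 25.6% of all changing genes did. As a share of all tested genes, those called with their highest mean at ZT12 were 14.1% in jaz4-1 and 12.6% in Col-0. Highest means at ZT0, ZT6 and ZT18 were found for 15, 7 and 1 members in jaz4-1 and 12, 7 and 1 in Col-0, against 20.5%, 13.3% and 5.59% of all tested genes in jaz4-1 and 18.9%, 11.7% and 6.05% in Col-0. In both lines together, 24 members were highest at ZT12, 12 at ZT0, 3 at ZT6 and 0 at ZT18 among the 39 whose highest time was the same. The members took 0.674% ± 0.0335 of all reads at ZT12 in jaz4-1 (SD, n = 3) and 0.733% ± 0.0270 in Col-0. At ZT0 they took 0.202% ± 0.0438 in jaz4-1 and 0.209% ± 0.0285 in Col-0. ZT6 and ZT18 lay between these, at 0.370% ± 0.0567 and 0.327% ± 0.0310 in jaz4-1 and 0.415% ± 0.0164 and 0.321% ± 0.0448 in Col-0. The ZT12 libraries of the lines overlapped, with 0.645% to 0.711% in jaz4-1 and 0.708% to 0.762% in Col-0.

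**Figure D2:**
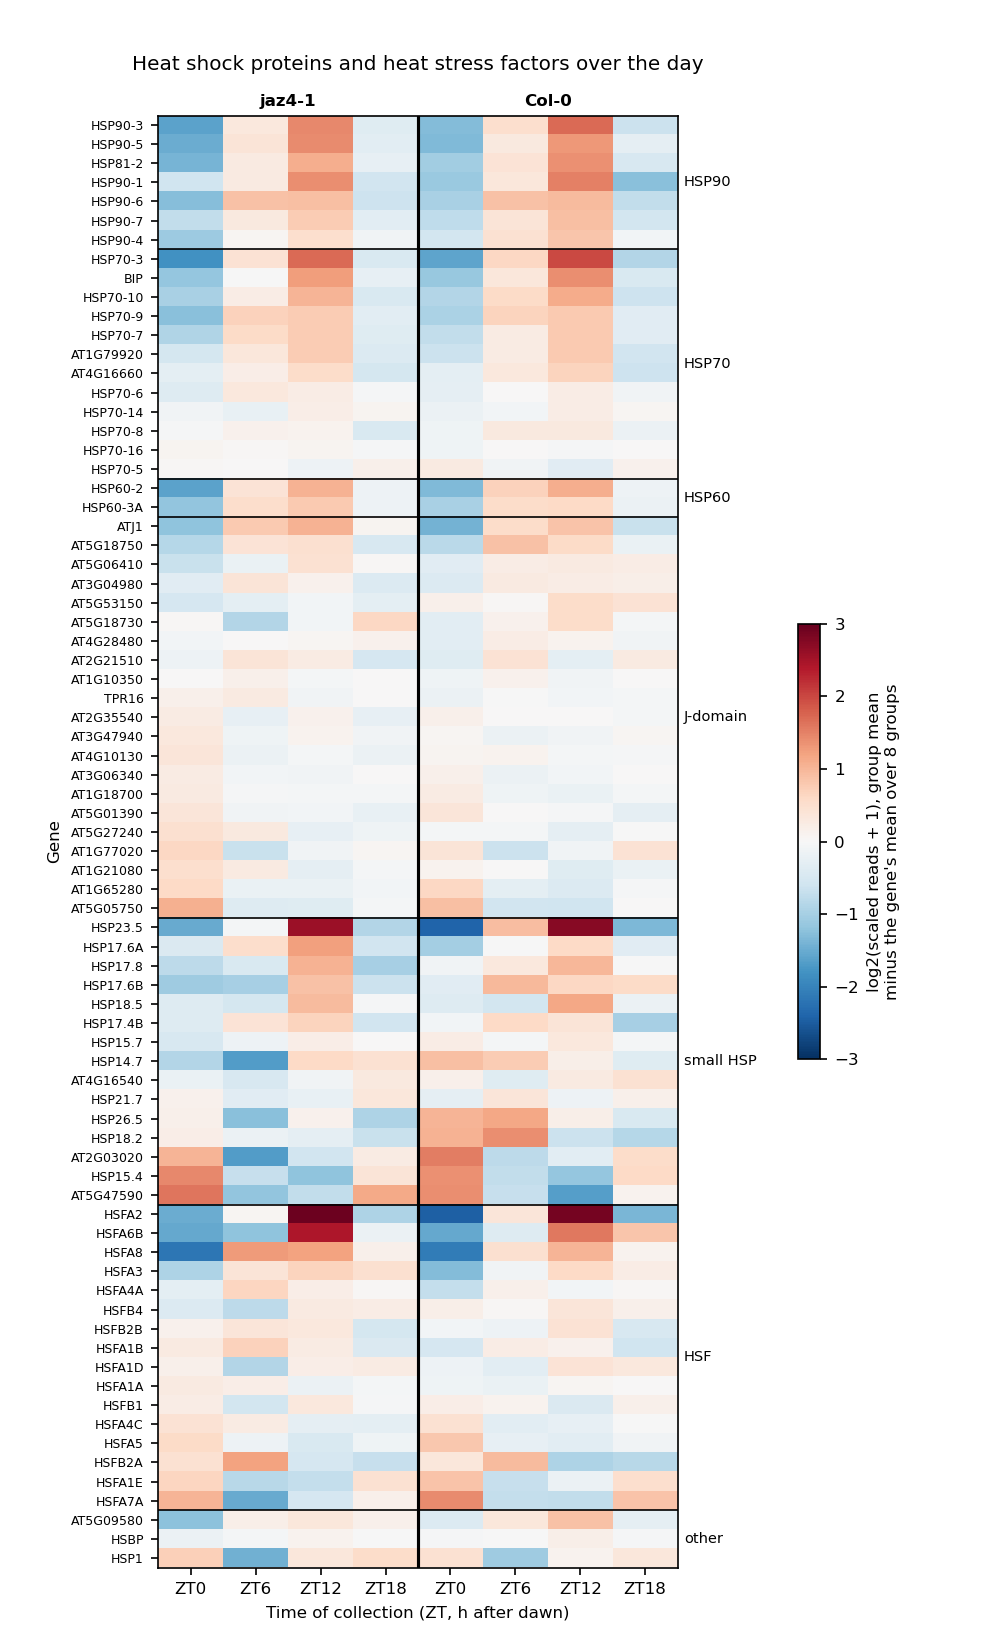
Mean scaled reads of the tested members by line (jaz4-1 columns left of Col-0) and time (ZT in h), shown on a log2 scale relative to each gene's own mean over the 8 groups, with genes grouped by protein class. HSP90, HSP60 and most HSP70 rows are highest at ZT12 in both lines, whereas HSF, J-domain and small HSP rows differ from gene to gene.

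Dusk was therefore set against dawn in each line, a contrast chosen after these values were seen. In jaz4-1, 48 members were called (background 45.8% of all genes), of which 34 were higher at ZT12 and 14 lower, against 23.0% and 22.7% of all genes. In Col-0, 49 were called (background 44.6%), 34 higher and 15 lower, against 22.8% and 21.8%. The higher members made up 44.7% of the 76 in either line. The median log2 difference of the members was 0.35 in jaz4-1 and 0.42 in Col-0, against 0.02 and 0.04 over all genes tested. A total of 31 members were higher in both lines, 91.2% of the list of each line, where shared genes made up 77.2% of the jaz4-1 list and 78.0% of the Col-0 list over all genes. Another 12 were lower in both lines, 85.7% of the jaz4-1 list and 80.0% of the Col-0 list. Over all genes the shared lower genes made up 78.0% and 81.3%, so the members were near the background there.

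All 7 HSP90s were higher at dusk than at dawn in both lines, with a median log2 difference of 2.18 in jaz4-1 and 2.43 in Col-0. HSP90-5 (AT2G04030, chr2:1281754-1286144, plus strand, TAIR10.1), the chloroplast HSP90, is the most abundant HSP90 per length. In jaz4-1 its scaled reads were 2707, 3655 and 1304 at dawn, 7925, 9884 and 8362 at midday, 17162, 16874 and 18692 at dusk, and 5438, 5217 and 5157 at midnight. In Col-0 they were 3135, 3144 and 1901 at dawn, 8050, 7458 and 8922 at midday, 13703, 18717 and 16808 at dusk, and 5409, 5553 and 5602 at midnight. Every ZT12 library was above every library of the other times, and the lines overlapped at each time. The ZT12 minus ZT0 difference was 2.90 ± 0.24 (log2, SE) in jaz4-1 and 2.61 ± 0.24 in Col-0, with limma adjusted p of 2.75e-09 and 1.41e-08.

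The cytosolic HSP90s moved with it. HSP90-3 (AT5G56010), a constitutive cytosolic HSP90, averaged 9305 ± 202 scaled reads at ZT12 and 1205 ± 536 at ZT0 in jaz4-1, and 11022 ± 508 at ZT12 and 1439 ± 488 at ZT0 in Col-0 (SD, n = 3). Its neighbour HSP81-2 (AT5G56030) was higher at ZT12 by 2.48 in jaz4-1 and 2.43 in Col-0 on the log2 scale. HSP90-1 (AT5G52640), the cytosolic form known for its induction by heat, had 404 ± 114 scaled reads at ZT12 and 98.5 ± 13.99 at ZT0 in jaz4-1, and 432 ± 79.8 at ZT12 and 69.3 ± 12.8 at ZT0 in Col-0. The organelle forms were higher at dusk too. HSP90-7 (AT4G24190), the ER form, differed by 1.5 in jaz4-1 and 1.66 in Col-0, and HSP90-6 (AT3G07770), the mitochondrial form, by 2.18 in jaz4-1 and 1.91 in Col-0. HSP90-4, another constitutive cytosolic form, differed by 1.59 in jaz4-1 and by 1.39 in Col-0. HSP90-4 and HSP81-2 share 94.7% and 92.6% of aligned bases with HSP90-3, so reads may be split between these genes.

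Of the 12 tested HSP70s, 9 were higher at dusk in jaz4-1 and none was lower, and in Col-0 9 were higher and 1 was lower. The widest daily range of the most abundant HSP70s was that of HSP70-3 (AT3G09440, chr3:2902355-2905947, minus strand), a cytosolic HSP70. In jaz4-1 it had 857, 1222 and 497 scaled reads at dawn, 3193, 5136 and 3451 at midday, 9552, 8645 and 9185 at dusk, and 1879, 2207 and 2053 at midnight. In Col-0 it had 901, 1263 and 735 at dawn, 4440, 5242 and 3493 at midday, 11083, 11830 and 10447 at dusk, and 1056, 1707 and 2007 at midnight. The highest group mean was 10.6 times the lowest in jaz4-1 and 11.5 times in Col-0. Its ZT12 libraries did not overlap with those of any other time, and the log2 difference from ZT0 was 3.50 ± 0.27 in jaz4-1 and 3.56 ± 0.27 in Col-0 (limma adjusted p 1.24e-09 and 9.69e-10). Of its exon bases, 18.9% overlap a gene on the opposite strand, and the sources used here do not say whether strand was kept.

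BIP (chr5:16807342-16810693, minus strand), the HSP70 of the ER lumen, followed the same course. In jaz4-1 its scaled reads were 1696, 1802 and 1018 at dawn, 2701, 3505 and 3590 at midday, 8026, 7136 and 8274 at dusk, and 2560, 2921 and 2727 at midnight. In Col-0 they were 1398, 1807 and 1303 at dawn, 4323, 4144 and 3780 at midday, 8261, 8775 and 8455 at dusk, and 1913, 2499 and 2802 at midnight. The ZT12 libraries were again the highest of each line, and ZT12 minus ZT0 was 2.42 ± 0.18 in jaz4-1 and 2.51 ± 0.18 in Col-0 (log2 ± SE). BIP shares 97.2% of aligned bases with BIP1, a second ER HSP70 that the rule leaves out, and BIP1 differed by 2.14 in jaz4-1 and 2.38 in Col-0.

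The chloroplast and mitochondrial HSP70s were higher at dusk by less than HSP70-3 and BIP. HSP70-7 (AT5G49910), a chloroplast stromal HSP70, differed by 1.67 in jaz4-1 and 1.54 in Col-0 on the log2 scale. HSP70-6 (AT4G24280), its partner in the stroma and the member with most reads per length, differed by 0.60 in jaz4-1 and 0.50 in Col-0. The call of HSP70-6 in Col-0 was lost without Col-0 ZT0 replicate 1 (adjusted p 0.0958) or without Col-0 ZT12 replicate 2 or 3 (0.0578 and 0.0529). The mitochondrial HSP70-9 and HSP70-10 were higher by 2.02 and 2.00 in jaz4-1 and by 1.72 and 1.99 in Col-0. AT1G79920, a member of the HSP110 branch that exchanges nucleotide on HSP70, was higher by 1.29 in jaz4-1 and 1.44 in Col-0. It shares 95.4% of aligned bases with its neighbour HSP70-14, so reads may be split between these genes. The highest group mean of HSP70-14 was only 1.33 times the lowest in jaz4-1 and 1.30 times in Col-0. AT4G16660, a further HSP70 family member, had its highest mean at ZT12 in both lines. That mean was 2.08 times the lowest in jaz4-1 and 2.40 times in Col-0 (limma adjusted p for change over time 4.47e-07 and 2.85e-08). HSP70-5 was the exception, with a log2 difference of -0.19 in jaz4-1 that did not pass and of -0.62 in Col-0 that did. Its Col-0 call was lost without Col-0 ZT0 replicate 2 (adjusted p 0.137) or Col-0 ZT12 replicate 3 (0.0739).

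Both HSP60s, named in the table as mitochondrial chaperonins, were higher at dusk. In jaz4-1, HSP60-2 (AT2G33210) had 313, 422 and 106 scaled reads at dawn, 846, 967 and 1136 at midday, 1529, 1430 and 1646 at dusk, and 630, 900 and 529 at midnight. In Col-0 it had 404, 473 and 134 at dawn, 1217, 1135 and 1253 at midday, 1374, 1741 and 1617 at dusk, and 516, 719 and 801 at midnight. The ZT12 libraries were above all others in each line, and replicate 3 was the lowest at ZT0 in both. HSP60-3A (AT3G13860) was higher at ZT12 than at ZT0 by 1.96 in jaz4-1 and 1.57 in Col-0, on the log2 scale.

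**Figure D3:**
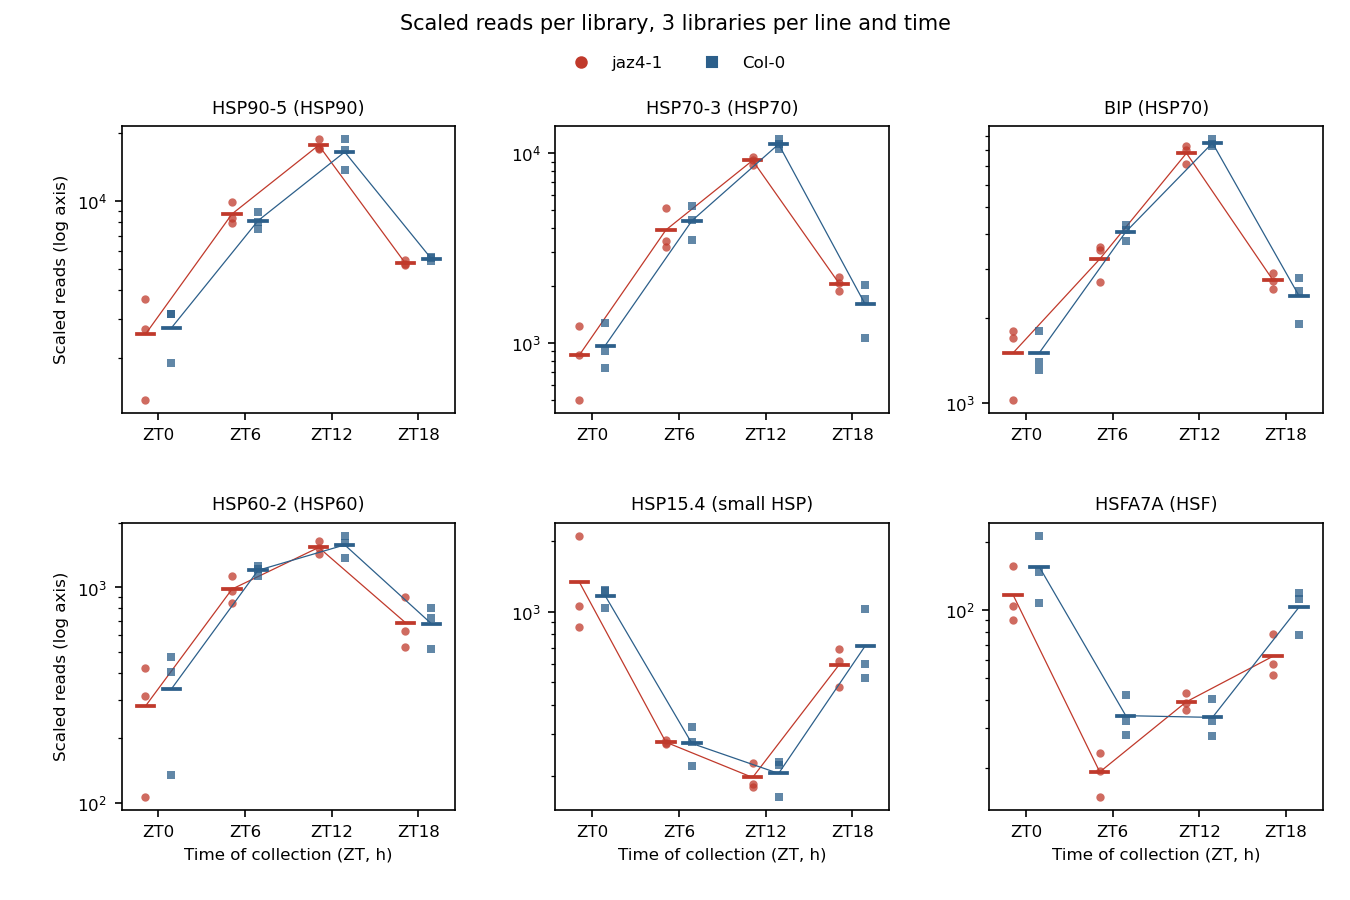
Scaled reads of 6 members in every library (points) with group means (lines), by time (ZT in h, log axis) for jaz4-1 and Col-0. HSP90-5, HSP70-3, BIP and HSP60-2 are highest at ZT12, whereas HSP15.4 and HSFA7A are highest at ZT0.

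The J-domain proteins, which stimulate the ATPase of HSP70, did not share this course. Of 21 tested, 4 were higher and 7 lower at dusk in jaz4-1, and 5 were higher and 5 lower in Col-0. Of all tested genes, 23.0% were higher and 22.7% lower in jaz4-1, and 22.8% were higher and 21.8% lower in Col-0. The share of higher J-domain genes was thus near the background in both lines. The lower count in jaz4-1 was 4 without jaz4-1 ZT0 replicate 3 or without jaz4-1 ZT12 replicate 1, and the higher count in Col-0 was 3 without Col-0 ZT12 replicate 1. ATJ1, a mitochondrial J protein, was the one most like its HSP70 partners, higher by 2.26 ± 0.43 in jaz4-1 and 2.27 ± 0.43 in Col-0 (log2 ± SE, limma adjusted p 0.000172 and 0.000176). It averaged 115 ± 8.36 scaled reads at ZT12 and 27.3 ± 19.7 at ZT0 in jaz4-1, and 101 ± 10.06 at ZT12 and 22.1 ± 11.7 at ZT0 in Col-0 (SD, n = 3). AT1G65280 went the other way, with 572 ± 25.7 at ZT12 and 995 ± 25.3 at ZT0 in jaz4-1, and 498 ± 22.8 at ZT12 and 1013 ± 40.4 at ZT0 in Col-0. AT5G05750 was also lower at dusk, by 1.42 in jaz4-1 and 1.51 in Col-0 on the log2 scale. TPR16, the J-domain gene with most CPM, did not change over time in either line (limma adjusted p 0.0721 in jaz4-1 and 0.689 in Col-0).

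AT1G18700 and AT1G21080 were lower at dusk in both lines, by log2 differences of -0.31 and -0.79 in jaz4-1 and of -0.45 and -0.47 in Col-0. The AT1G18700 call in jaz4-1 was lost without jaz4-1 ZT0 replicate 3 (adjusted p 0.0516) or jaz4-1 ZT12 replicate 1 (0.0581). The AT1G21080 call in Col-0 was lost without Col-0 ZT0 replicate 3 (0.0711).

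Small HSPs, the class most strongly induced by heat, were low and mixed. Of 22, 7 had too few reads to be tested, namely HSP17.6C, HSP17.4A, HSP22.0, HSP23.6, HSP21, HSP17.6 and HSP17.7. Of the 15 tested, 6 were higher and 2 lower at dusk in jaz4-1, and 3 were higher and 4 lower in Col-0. The higher share was 40% in jaz4-1 and 20% in Col-0, against 23.0% and 22.8% of all tested genes. Lower were 22.7% and 21.8% of all tested genes. Without jaz4-1 ZT12 replicate 3, 3 were higher and 1 lower in jaz4-1. The lower count in jaz4-1 was also 1 without jaz4-1 ZT0 replicate 1 or 3 and without jaz4-1 ZT12 replicate 2.

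The clearest course belonged to HSP15.4 (AT4G21870, chr4:11603481-11604637, minus strand), which peaked at dawn. In jaz4-1 its scaled reads were 1054, 856 and 2105 at dawn, 276, 284 and 274 at midday, 184, 226 and 179 at dusk, and 617, 478 and 690 at midnight. In Col-0 they were 1239, 1040 and 1222 at dawn, 324, 220 and 279 at midday, 162, 229 and 223 at dusk, and 1028, 597 and 520 at midnight. All ZT0 libraries were above all ZT18 libraries within a line, and these above all ZT6 and ZT12 libraries. ZT12 minus ZT0 was -2.66 ± 0.26 in jaz4-1 and -2.52 ± 0.26 in Col-0 (limma adjusted p 4.63e-08 and 1.01e-07), opposite in sign to the HSP90s. The libraries with the lowest chaperone sums at ZT0, both replicate 3, were not low here, with 2105 and 1222 scaled reads.

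HSP23.5 (AT5G51440), a mitochondrial small HSP, peaked at dusk from a level near 0. In jaz4-1 it had 61.2, 51.3 and 65.9 scaled reads at ZT12 and 3.27, 1.91 and 2.53 at ZT0. In Col-0 it had 53.2, 86.6 and 63.3 at ZT12 and 0.921, 0 and 2.68 at ZT0. The times did not overlap, and the log2(value + 1) difference was 4.09 ± 0.70 in jaz4-1 and 5.13 ± 0.70 in Col-0 (limma adjusted p 4.81e-05 and 2.99e-06). HSP18.5 (AT2G19310), the small HSP with most reads, averaged 1307 ± 151 scaled reads at ZT12 and 535 ± 175 at ZT0 in jaz4-1, and 1509 ± 181 at ZT12 and 524 ± 111 at ZT0 in Col-0. HSP17.4B, a class III small HSP, was higher at dusk by 1.06 in jaz4-1 and had a difference of 0.47 in Col-0 that did not pass (adjusted p 0.0917). HSP21.7 did not change over time in either line.

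The heat stress factors split by gene. Of 19, 16 were tested, and HSFB3, HSFA7B and HSFA6A had too few reads. In jaz4-1 5 were higher and 5 lower at dusk, and in Col-0 7 were higher and 5 lower. The higher share was 31.25% in jaz4-1 and 43.75% in Col-0, against 23.0% and 22.8% of all tested genes. Lower were 22.7% and 21.8% of all tested genes. HSFA2 (AT2G26150, chr2:11135624-11137792, plus strand), which prolongs the heat response, rose to 89.7, 60.6 and 97.5 scaled reads at ZT12 in jaz4-1, against 2.18, 3.82 and 2.53 at ZT0. In Col-0 it had 111, 97.9 and 42.2 at ZT12, against 6.45, 0 and 0 at ZT0. At ZT6 it had 10.8, 12.3 and 7.71 in jaz4-1 and 12.2, 7.598 and 20.98 in Col-0. Every dusk library was above those of all other times within its line, with log2(value + 1) differences of 4.44 ± 0.67 in jaz4-1 and 5.32 ± 0.67 in Col-0 (limma adjusted p 1.05e-05 and 9.68e-07).

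HSFA8 (AT1G67970, chr1:25484449-25486512, minus strand), a class A factor, was low at dawn and high from midday. In jaz4-1 it had 24, 15.3 and 21.5 scaled reads at dawn, 220, 299 and 176 at midday, 178, 228 and 242 at dusk, and 107, 101 and 101 at midnight. In Col-0 it had 17.5, 24.2 and 21.5 at dawn, 90.2, 140 and 177 at midday, 188, 181 and 196 at dusk, and 128, 85.4 and 92 at midnight. All ZT0 libraries lay below all others. HSFA3 (AT5G03720), which in heat acts downstream of DREB2A, averaged 135 ± 24 scaled reads at ZT12 and 43.5 ± 2.90 at ZT0 in jaz4-1, and 129 ± 22.0 at ZT12 and 35.4 ± 14.7 at ZT0 in Col-0. HSFA6B (AT3G22830), another class A factor, was seen at dusk with 18.4, 11.8 and 14.1 scaled reads in jaz4-1 and 6.74, 7.22 and 9.60 in Col-0, and had no read in any ZT0 library of either line. HSFA4A, also of class A, was higher at dusk by 0.50 in jaz4-1 and 0.63 in Col-0. Its jaz4-1 call was lost without jaz4-1 ZT0 replicate 1 or 3 (adjusted p 0.054 and 0.0757), without jaz4-1 ZT12 replicate 3 (0.115), and with the libraries of that line alone (0.0515).

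Other factors were highest at dawn. HSFA7A (AT3G51910, chr3:19265141-19266806, plus strand), a class A factor, had 104, 89.8 and 156 scaled reads at dawn, 14.8, 23.3 and 19.3 at midday, 42.8, 38.7 and 36 at dusk, and 57.3, 51.7 and 77.8 at midnight in jaz4-1. In Col-0 it had 213, 107 and 146 at dawn, 27.8, 41.8 and 32.3 at midday, 27.7, 32.1 and 40.3 at dusk, and 112, 77.6 and 119 at midnight. ZT12 minus ZT0 was -1.51 ± 0.30 in jaz4-1 and -2.15 ± 0.30 in Col-0 (log2 ± SE, limma adjusted p 0.000239 and 3.93e-06). HSFA5, which pairs with HSFA4 and represses it, was lower at dusk by 1.04 in jaz4-1 and 1.12 in Col-0. HSFA4C was lower by 0.70 in either line. HSFB2A, a class B factor, had its highest mean at ZT6 in both lines and was lower at dusk than at dawn by 0.95 in jaz4-1 and 1.28 in Col-0. HSFB2B, also of class B, changed over time in both lines (limma adjusted p 0.00481 in jaz4-1 and 0.00854 in Col-0). Its highest mean was at ZT6 in jaz4-1 and at ZT12 in Col-0. Of the exon bases of HSFB2B, 22.4% overlap genes on the opposite strand.

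The 4 class A1 factors, the master regulators of the heat response, differed from each other. HSFA1E was lower at dusk by 1.36 in jaz4-1 and 1.03 in Col-0. HSFA1A did not change over time in either line (adjusted p 0.378 in jaz4-1 and 0.821 in Col-0). HSFA1D had a ZT12 minus ZT0 difference of 0.04 in jaz4-1 that did not pass and of 0.55 in Col-0 that did. That Col-0 call was lost without Col-0 ZT0 replicate 2 (adjusted p 0.133) or Col-0 ZT12 replicate 1 (0.0871). HSFA1B had a difference of -0.01 in jaz4-1, which did not pass, and of 0.64 in Col-0, which did (adjusted p 0.974 and 0.00389). The dependence of the line difference on time did not pass for HSFA1B (limma adjusted p 0.735) or HSFA1D (0.603), so the lines are not shown to differ in these courses. HSFB1, HSFB4 and HSFA1A were the 3 tested factors that changed over time in neither line.

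Among the 3 remaining members, HSBP (AT4G15802), which binds HSF trimers and damps them, did not change over time (adjusted p 0.376 in jaz4-1 and 0.590 in Col-0). HSP1 (AT4G14830) changed over time in both lines with no dusk minus dawn difference that passed, and 43.3% of its exon bases overlap a gene on the opposite strand. AT5G09580 was higher at dusk by 1.57 in jaz4-1 and 1.29 in Col-0. Its Col-0 call was lost without Col-0 ZT0 replicate 1 or 3 (adjusted p 0.0827 and 0.0737) or Col-0 ZT12 replicate 1 (0.0695).

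**Figure D4:**
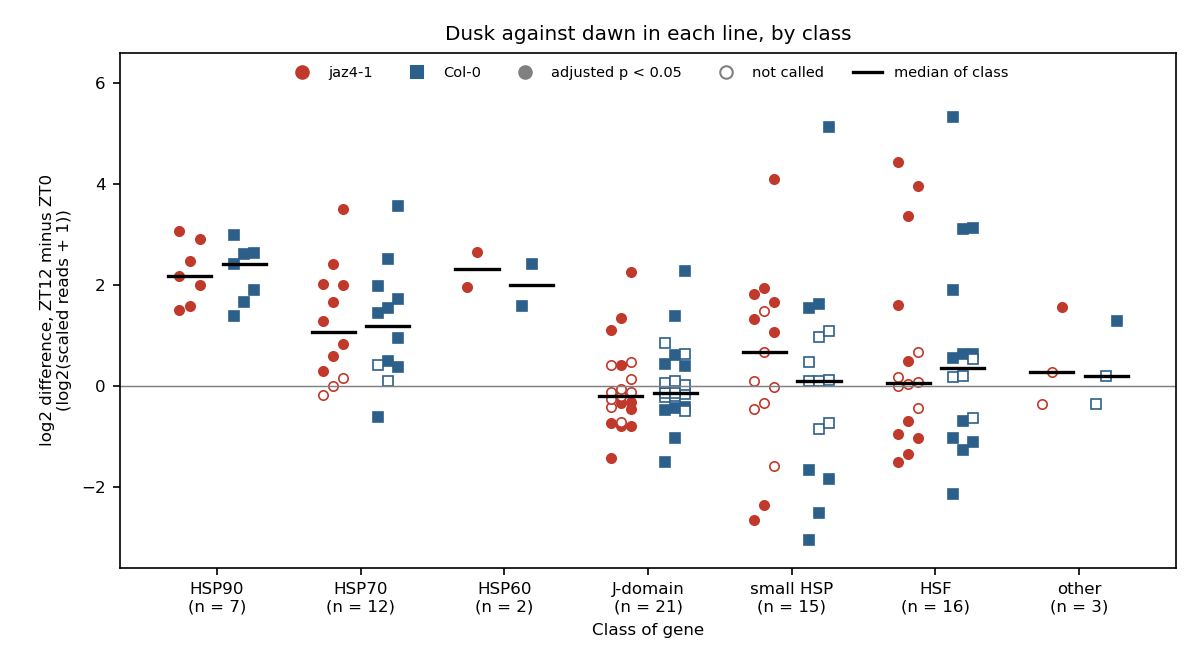
ZT12 minus ZT0 log2 difference of each tested member (points) by protein class, with jaz4-1 left of Col-0, filled where the adjusted p is under 0.05, and black lines for class medians. The HSP90 and HSP60 points are all above 0, whereas J-domain, small HSP and HSF points lie on both sides.

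Per exon length, HSP90s, HSP70s and HSP60s had the highest class medians and small HSPs the lowest. The class medians were 1773 scaled reads per kb for HSP90s, 701 for HSP70s and 348 for HSP60s, against 75.8 for J-domain proteins, 70.2 for HSFs and 16.1 for small HSPs, over all 24 libraries. The levels per kb were led by the chloroplast HSP70s, with 3819 for HSP70-6 and 3681 for HSP70-7, followed by HSP90-5 with 2980, HSP90-7 with 2006 and HSP81-2 with 1851. HSP70-6 and HSP70-7 share 85.7% of aligned bases, so their order is uncertain. HSBP, the small HSF-binding protein, stood at 1317, close to HSP70-3 at 1320.

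Promoters were searched for heat shock elements, the inverted repeats of GAA bound by HSF trimers. The window ran from 250 bases before to 50 after the RefSeq start of each gene (assembly TAIR10.1), and each motif was searched on both strands. A pair of units, GAANNTTC or TTCNNGAA, occurred in 26 of the 90 members (28.9%) and in 18.9% of 24296 promoters of the same length. By class it was held by 11 of 22 small HSPs, 7 of 19 HSFs, 4 of 13 HSP70s, 1 of 2 HSP60s, 3 of 24 J-domain genes and 0 of 7 HSP90s. A missing match says only that these letters are not in the window. A run of 3 units, a pair extended by NNGAA or NNTTC and so always holding a pair, occurred in 7 members (7.78%) and in 0.514% of all promoters. The evening element AAAATATCT, a clock motif, occurred in 7 members (7.78%) and in 2.88% of all promoters, and the ER stress element ERSE-II (ATTGG and CCACG with 1 base between) in 1 member, BIP, and in 0.0823% of all promoters. The evening element and ERSE-II were chosen after the values had been seen, as were the promoters shown.

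Promoters of 3 chaperones highest at dusk, 2 factors higher at dusk than at dawn and 1 factor highest at dawn are shown 5′ to 3′ on the gene's strand, with motif matches in capitals. HSP70-3 (chr3:2905898-2906197, minus strand) and HSP70-7 (chr5:20303084-20303383, plus strand) have a 3-unit heat shock element after the start, and BIP (chr5:16810644-16810943, minus strand) has the ERSE-II match.
HSP70-3: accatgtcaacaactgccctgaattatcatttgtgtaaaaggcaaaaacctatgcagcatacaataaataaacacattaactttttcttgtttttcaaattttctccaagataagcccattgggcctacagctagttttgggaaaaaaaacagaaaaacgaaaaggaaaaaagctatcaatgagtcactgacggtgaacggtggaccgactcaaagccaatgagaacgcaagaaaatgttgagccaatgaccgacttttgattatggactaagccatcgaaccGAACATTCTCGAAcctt
HSP70-7: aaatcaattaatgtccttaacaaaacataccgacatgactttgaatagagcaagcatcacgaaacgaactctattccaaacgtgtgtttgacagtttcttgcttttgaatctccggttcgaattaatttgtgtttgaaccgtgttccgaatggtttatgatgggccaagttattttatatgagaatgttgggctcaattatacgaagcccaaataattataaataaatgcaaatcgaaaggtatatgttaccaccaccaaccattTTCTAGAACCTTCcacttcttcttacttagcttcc
BIP: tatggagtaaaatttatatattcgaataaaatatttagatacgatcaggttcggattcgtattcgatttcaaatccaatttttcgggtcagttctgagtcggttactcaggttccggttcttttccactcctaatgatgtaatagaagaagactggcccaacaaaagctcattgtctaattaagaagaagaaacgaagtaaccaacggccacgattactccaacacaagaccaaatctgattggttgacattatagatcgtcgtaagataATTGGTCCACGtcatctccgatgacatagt

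HSFA2 (chr2:11135374-11135673, plus strand) has a 3-unit element and 2 further pairs of units. HSFA8 (chr1:25486463-25486762, minus strand) has 2 evening elements and a pair of units. HSFA7A (chr3:19264891-19265190, plus strand) has 2 elements of 3 units and was highest at dawn.
HSFA2: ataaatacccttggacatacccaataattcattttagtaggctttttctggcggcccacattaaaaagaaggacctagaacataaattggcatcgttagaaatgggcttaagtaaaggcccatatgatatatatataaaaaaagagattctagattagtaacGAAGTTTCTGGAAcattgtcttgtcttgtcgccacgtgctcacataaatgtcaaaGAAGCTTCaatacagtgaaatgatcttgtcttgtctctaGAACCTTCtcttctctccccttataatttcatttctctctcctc
HSFA8: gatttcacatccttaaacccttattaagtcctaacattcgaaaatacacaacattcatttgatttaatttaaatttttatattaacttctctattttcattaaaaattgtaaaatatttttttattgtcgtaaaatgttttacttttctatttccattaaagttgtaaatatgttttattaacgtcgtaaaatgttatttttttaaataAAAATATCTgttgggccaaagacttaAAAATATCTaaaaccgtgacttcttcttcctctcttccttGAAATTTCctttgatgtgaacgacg
HSFA7A: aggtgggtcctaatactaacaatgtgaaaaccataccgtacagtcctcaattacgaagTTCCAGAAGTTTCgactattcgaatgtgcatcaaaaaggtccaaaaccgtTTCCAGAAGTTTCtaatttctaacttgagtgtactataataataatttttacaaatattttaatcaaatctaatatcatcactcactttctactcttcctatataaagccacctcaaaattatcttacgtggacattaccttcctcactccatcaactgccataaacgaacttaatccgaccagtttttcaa

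Between the lines, few heat shock genes differed. At ZT0 2 of the 76 members were called, against a background of 0.923% of all tested genes. At ZT6 1 was called (background 2.95%), and on average over the 4 times 2 were called (background 4.68%). In limma, 8 members at ZT0, 15 at ZT6 and 13 on average over times had an unadjusted p under 0.05. The share of all genes at that unadjusted cut was not counted for any contrast. At ZT12 and ZT18 limma called 0 (backgrounds 0.321% and 0.138%), with 2 and 4 members at an unadjusted p under 0.05. There edgeR's quasi-likelihood test also called 0, and DESeq2 called 1 at each time, AT5G53150. No member's line difference depended on time (background 0.194%), with 6 at an unadjusted p under 0.05 and 0 called by edgeR or DESeq2. The median log2 difference of the members was -0.00 at ZT0, -0.11 at ZT6, -0.02 at ZT12 and 0.02 at ZT18, against 0.01, -0.04, 0.00 and 0.00 over all genes. The 3 libraries of each line did not overlap for 9, 18, 13 and 7 of the 76 members at the 4 times, against 11.4%, 26.8%, 14.7% and 10.2% of all genes, which is near the background.

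HSFA1B (AT5G16820, chr5:5530195-5532889, plus strand), a class A1 master regulator, was higher in jaz4-1 at dawn. At ZT0 it had 231, 176 and 245 normalised reads in jaz4-1, against 114, 135 and 129 in Col-0. At ZT6 it had 349, 322 and 261 in jaz4-1, against 199, 246 and 238 in Col-0. At ZT12 the values were 313, 258 and 318 in jaz4-1 and 270, 255 and 288 in Col-0, and at ZT18 they were 151, 201 and 154 in jaz4-1 and 155, 168 and 122 in Col-0. The lines did not overlap at ZT0 and ZT6 and overlapped at ZT12 and ZT18. The log2 difference was 0.77 ± 0.17 at ZT0 (limma adjusted p 0.0254) and 0.38 ± 0.085 on average (adjusted p 0.0106).

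The ZT0 call of HSFA1B was lost without jaz4-1 ZT0 replicate 1 (adjusted p 0.126) or 3 (0.119) and without Col-0 ZT0 replicate 1 (0.0936) or 2 (0.0531). The average call was kept in every setting tried. In the authors' deposited table HSFA1B does not pass at ZT0 (adjusted p 0.276). HSFA1A, HSFA1D and HSFA1E, the other A1 factors, were not called in any line contrast with all 24 libraries in limma. Without jaz4-1 ZT6 replicate 3, HSFA1D was called at ZT6, lower in jaz4-1 with a log2 difference of -0.75 (limma adjusted p 0.0293).

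AT5G53150 (chr5:21553355-21557592, plus strand), a J-domain gene, was lower in jaz4-1 at most times. At ZT0 it had 305, 315 and 269 normalised reads in jaz4-1, against 510, 496 and 394 in Col-0. At ZT6 the values were 373, 479 and 276 in jaz4-1 and 453, 484 and 463 in Col-0. At ZT12 they were 585, 537 and 508 in jaz4-1 and 887, 797 and 854 in Col-0, and at ZT18 448, 456 and 393 in jaz4-1 and 803, 648 and 691 in Col-0. The lines did not overlap at ZT0, ZT12 and ZT18 and overlapped at ZT6. The log2 difference was -0.65 ± 0.15 at ZT0 (limma adjusted p 0.0373) and -0.59 ± 0.075 on average (adjusted p 3.82e-05), and the average call was kept in every setting tried. At ZT12 and ZT18 the differences of -0.64 and -0.72 missed the threshold (adjusted p 0.0734 and 0.0552). They passed in DESeq2 (adjusted p 0.00880 and 0.00273). The authors' deposited table gives AT5G53150 adjusted p-values of 0.232 at ZT0, 0.000329 at ZT12 and 0.000585 at ZT18, so it passes where limma did not and misses where limma called it.

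The ZT0 call of AT5G53150 was lost without jaz4-1 ZT0 replicate 1 (adjusted p 0.101) or 3 (0.136), and without Col-0 ZT0 replicate 1 (0.129) or 2 (0.158). It was also just lost without libraries of other times, namely without jaz4-1 ZT12 replicate 2 (0.052), Col-0 ZT12 replicate 1 (0.0505) or jaz4-1 ZT18 replicate 1 (0.0507). The ZT12 difference passed without jaz4-1 ZT6 replicate 2 or 3, and the ZT18 difference passed without jaz4-1 ZT0 replicate 3, Col-0 ZT0 replicate 3 or jaz4-1 ZT6 replicate 2 or 3.

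HSP18.2 (chr5:24062323-24063300, plus strand), a cytosolic small HSP whose promoter is widely used as a heat-inducible switch, was lower in jaz4-1 at ZT6. It had 13.5, 17.7 and 30.3 normalised reads in jaz4-1, against 59.9, 63.0 and 57.7 in Col-0. At ZT0 the values were 24.3, 25.5 and 21.8 in jaz4-1 and 56.5, 49.8 and 28.96 in Col-0. At ZT12 they were 21.9, 20.8 and 28.1 in jaz4-1 and 11.6, 18.99 and 26.2 in Col-0, and at ZT18 15.39, 16.3 and 16.1 in jaz4-1 and 12.5, 12.2 and 17.3 in Col-0. The lines did not overlap at ZT0 and ZT6, and overlapped at ZT12 and ZT18. The log2 difference at ZT6 was -1.58 ± 0.37 (limma adjusted p 0.0207), and its dependence on time did not pass (p 0.00332, adjusted p 0.327).

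Over the day HSP18.2 changed in Col-0 (adjusted p 1.87e-05), with its highest mean at ZT6, 64.7 scaled reads, and its lowest at ZT18, 12.98. In jaz4-1 no change over time passed (adjusted p 0.231). The ZT6 line call was lost without jaz4-1 ZT6 replicate 1 (adjusted p 0.0902) or 2 (0.0746) and without Col-0 ZT6 replicate 1 (0.0871), 2 (0.0721) or 3 (0.0555). Without both libraries that stood apart in the low small HSPs, one of which is Col-0 ZT6 replicate 3, it was 0.0562. In the authors' deposited table HSP18.2 at ZT6 has a log2 fold change of -0.94 and an adjusted p of 0.0183, with no statement of how the fold change was computed.

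Results for HSP17.6B and HSFA8 at ZT6 depended on the tool. HSP17.6B, a class I (cytosolic) small HSP, had 3.69, 5.05 and 10.7 normalised reads at ZT6 in jaz4-1, against 16.5, 19.5 and 54.7 in Col-0, where the highest library is again Col-0 ZT6 replicate 3. Its log2 difference of -1.97 ± 0.60 missed the threshold in limma (adjusted p 0.0740) and passed in DESeq2 (adjusted p 0.0352). HSFA8 at ZT6 had a difference of 0.77 ± 0.25 that missed in limma (adjusted p 0.0949) and passed in DESeq2 (adjusted p 0.0412). HSP90-1 at ZT18 averaged 111 ± 30 in jaz4-1 and 67.4 ± 12.7 in Col-0 (normalised reads, SD, n = 3), a difference of 0.69 that was far from the threshold (adjusted p 0.934). Leaving out jaz4-1 ZT6 replicate 3 gave 4 members called at ZT6, and leaving out jaz4-1 ZT12 replicate 3 gave 2. At ZT0, 5 were called without Col-0 ZT0 replicate 3, and on average over times 4 were called without jaz4-1 ZT0 replicate 2 or Col-0 ZT0 replicate 3. The shares of all tested genes called in these settings are not given here, so these counts have no background beside them.

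**Figure D5:**
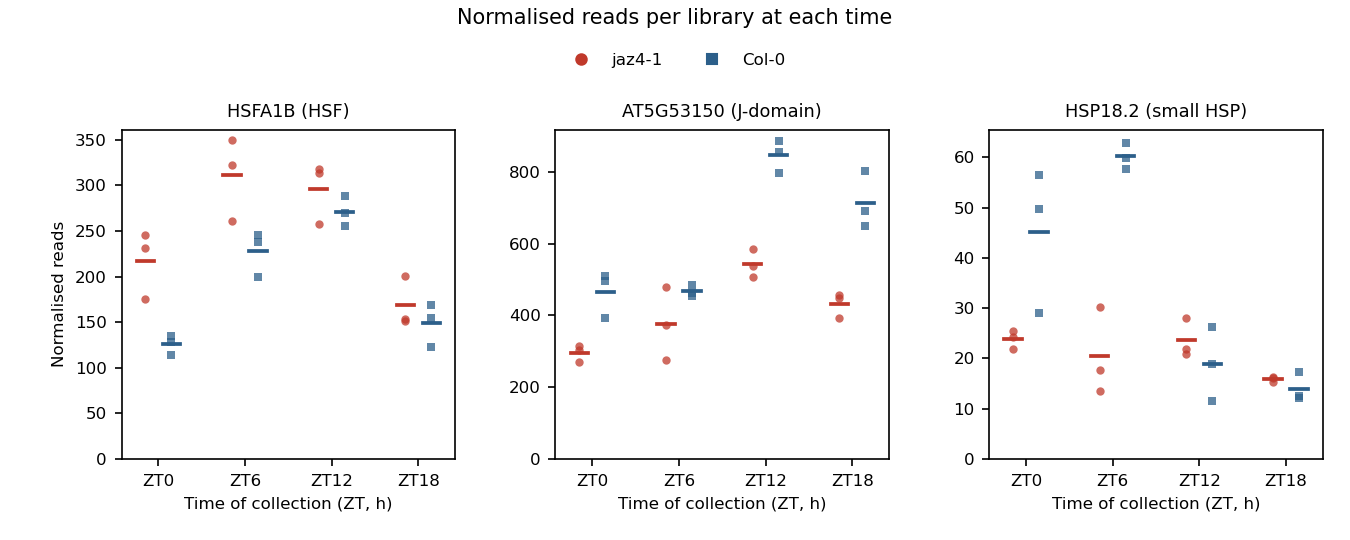
Normalised reads of HSFA1B, AT5G53150 and HSP18.2 in each library (points) with group means (horizontal lines), by time (ZT in h), jaz4-1 left of Col-0 and axes from 0. Without overlap of libraries, HSFA1B is higher in jaz4-1 at ZT0 and ZT6. AT5G53150 is lower without overlap at ZT0, ZT12 and ZT18, and HSP18.2 at ZT0 and ZT6. At single times limma called HSFA1B and AT5G53150 at ZT0 and HSP18.2 at ZT6.

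Another 30 genes of the heat and unfolded protein responses fell outside the rule, and 29 of them were tested. Of these, 16 were higher and 2 lower at dusk in jaz4-1, where 23.0% of all tested genes were higher and 22.7% lower. In Col-0 18 were higher and 2 lower, where 22.8% of all tested genes were higher and 21.8% lower. The list's median log2 difference was 0.65 in jaz4-1 and 0.73 in Col-0, against 0.02 and 0.04 over all genes. In jaz4-1 11 of the 29 were not called, and in Col-0 9. The log2 differences ran from -1.98 to 5.27 in jaz4-1 and from -3.14 to 5.81 in Col-0. Co-chaperones and ER folding proteins were among the higher, and the genes named here are examples from the list. CNX1, the ER lectin chaperone calnexin, was higher by 2.26 in either line, and CRT1A, calreticulin, by 1.77 in jaz4-1 and 1.57 in Col-0. HOP3, which joins HSP70 to HSP90, was higher by 1.55 and 1.69, ROF1, a peptidyl-prolyl isomerase that binds HSP90, by 1.59 and 1.52, and FES1A, a nucleotide exchange factor of HSP70, by 1.57 and 1.28. DREB2A, the drought and heat factor upstream of HSFA3, was higher by 3.66 in jaz4-1 and 3.72 in Col-0. Between the lines limma called 1 of the 29 (3.45%) at ZT6 and on average, where 2.95% and 4.68% of all tested genes were called. That count is near the background. The gene, BZIP60, is a factor of the unfolded protein response. It was higher in jaz4-1 at ZT6 by 0.54 (limma adjusted p 0.0206) and on average by 0.27 (adjusted p 0.0141). At ZT6 BZIP60 averaged 492 ± 39.3 in jaz4-1 and 338 ± 40.4 in Col-0, in normalised reads (SD, n = 3). At dusk BZIP60 was lower than at dawn, by 0.69 in jaz4-1 and 0.66 in Col-0, while BIP was higher.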

How the data were processed

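RNA-seq was deposited for 24 libraries of Arabidopsis rosettes. Per the submitters' processing notes, HISAT2, featureCounts and the TAIR10 build were used; the sources used here give no versions, settings or strandedness. Per the file headers the columns are RPKM, but the deposited values are a signal unit, whole reads divided by 1 size factor per library computed within each time. Multiplied by that factor, 100% lay within 0.001 of a whole number. The authors also deposited log2 fold changes, p-values and adjusted p-values, used only where named.

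Of 24503 genes, 19614 passed filterByExpr (minimum count 10, minimum total 15) from edgeR 4.0.16. The main test was limma-trend (limma 3.58.1, R 4.3.3), robust, on log2(value + 1), with 1 coefficient per line and time and 16 residual degrees of freedom. Fold changes are on that scale, which understates changes of low genes. Line contrasts used deposited values; time contrasts used recovered reads scaled by median-of-ratios over all 24 libraries, since the deposited scale differs between times. Calls are at a Benjamini-Hochberg adjusted p under 0.05 over all genes tested. The fit was tested on simulated data. Alternatives were edgeR's quasi-likelihood test and DESeq2 1.42.0 on recovered reads, voom, other pseudocounts, TMM, no filter, single times or lines, and without single libraries; 3 libraries per group limit the precision. The labels call the libraries of a group biological replicates, and p-values measure the spread between them.

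Names, coordinates and promoters came from RefSeq, TAIR10.1, by locus tag (24297 genes matched, and 90 of 90 members); the files hold no coordinates. Transcripts were compared with blastn 2.17.0. Named genes were HSP18.2, every HSF, up to 4 members per class with most CPM, members called between the lines, and those with the smallest p or widest range over time. HSP70-5, HSP70-9, HSP70-10, AT1G79920, HSP90-4, ATJ1, AT5G05750 and HSP17.6B were named after their values were seen. Members and lists were chosen with earlier results of these data known. The ZT12 minus ZT0 contrast was added after the data were seen.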

Additional observations from a re-analysis of the deposited data

How the results depend on the processing

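Counts of members changing over time, or between ZT12 and ZT0, kept within 1.5 times their value in every setting; leaving out 1 library gave between 49 and 54 changing over time in jaz4-1 and between 44 and 50 in Col-0, and for ZT12 minus ZT0 between 40 and 49 in jaz4-1 and between 42 and 51 in Col-0. The small line counts moved. These counts, and those of the replicate block below, are given without the share of all genes called in the same setting. At ZT0, 0 members were called with voom, with the libraries of ZT0 alone, and without the 2 libraries with the fewest detected genes, and 0 to 5 when 1 library was left out. At ZT6, 3 were called with DESeq2, 0 with the libraries of ZT6 alone, 0 without the 2 libraries with the fewest detected genes, 0 without the small HSP libraries (a setting added after seeing the data), and 0 to 4 without 1 library. At ZT12, DESeq2, the libraries of ZT12 alone and leaving out the 2 libraries with the fewest detected genes gave 1 each, as did DESeq2 and leaving out those 2 libraries at ZT18, with 0 to 1 without 1 library at either time. On average over times DESeq2 gave 4, leaving out the 2 libraries 4, and leaving out 1 library 2 to 4. The dependence on time stayed at 0 in all settings run. The causes were not tested. Among the calls of named genes in the main fit, no log2 difference changed sign, and F tests carry no sign. Over all settings, 4884 of these calls were kept and 84 were lost. Many settings leave out a library outside the contrast, which leaves its difference unchanged. These totals therefore say little about line calls at single times.

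Same-numbered libraries of the lines were not treated as pairs, since the labels give no shared origin and 7 of 12, not all, had deviations from group means correlated over 0.1 (range -0.0978 to 0.327, median 0.129). As a hint of some pairing, 11 of 12 same-number correlations were above 0 and 19 of 24 libraries correlated best with their own number. A replicate block called 2 members at ZT0, 2 at ZT6, 1 at ZT12, 1 at ZT18 and 5 on average, and 51 over time in jaz4-1 and 47 in Col-0. HSP17.6B (ZT6), AT5G53150 (ZT12, adjusted p 0.0401, and ZT18, 0.0416), AT1G21080, HSP17.6B and HSP90-4 (average) were added by it. The 14 members below the filter were not tested.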
